A study of Mus musculus with 2 samples.

Results

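The Prader-Willi and Angelman imprinted cluster of mouse chromosome 7 was followed through 7 named genes, Snurf, Snrpn, Snhg14, Ube3a, Ndn, Magel2 and Mkrn3, out of 55536 annotated genes. They were chosen by symbol with no measured value in the rule, although earlier results of these data were known. Total RNA was sequenced from the left cerebral cortex of male mice aged 10 days. The animals were B6CASTF1/J, a hybrid with 1 genome copy from C57BL/6J and 1 from CAST/EiJ, and the labels list no treatment and no introduced allele. They form 1 group of 2 libraries, replicate 1 and replicate 2, each from 300 ng of RNA with synthetic ERCC spike-in RNA added. The labels give the animals numbers of their own, yet list 1 donor identifier for both. No other group exists, so no test between conditions and no p-value is given, and each SD covers these 2 libraries alone.

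Imprinted genes are transcribed from 1 parental copy, set by DNA methylation laid down in the germ line. In this cluster Snurf, Snrpn, Snhg14, Ndn, Magel2 and Mkrn3 are known to be read from the paternal copy, under a control region at the Snurf-Snrpn start. Ube3a is known to be read from the maternal copy in neurons, where the paternal Snhg14 transcript runs antisense into it and silences the paternal Ube3a. Loss of the paternal genes causes Prader-Willi syndrome and loss of maternal UBE3A causes Angelman syndrome in people. Alleles were not separated here, so every value adds both parental copies and imprinting itself was not measured. Reads of both copies were counted on 1 reference, mm10. How sequence differences between the copies acted on the counts was not tested.

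The sequences that the results turn on come first. Snurf and Snrpn are 2 reading frames on 1 messenger RNA, and GENCODE M21 carries Snurf as a bare coding record of 216 bases over 3 exons (gene ENSMUSG00000102627.1, mm10 chr7:59995449-60005049, minus strand). It is shown because the same bases also lie in a Snrpn transcript, and capitals mark its start and stop codons.
Snurf-201: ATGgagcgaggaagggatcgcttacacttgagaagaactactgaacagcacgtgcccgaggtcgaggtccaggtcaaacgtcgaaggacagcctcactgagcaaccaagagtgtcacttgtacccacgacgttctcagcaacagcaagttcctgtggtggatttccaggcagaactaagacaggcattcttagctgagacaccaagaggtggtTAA
The whole of it fills bases 63 to 278 of the transcript Snrpn-201 and bases 16 to 231 of a transcript of Gm38393, a read-through gene. None of its 186 words of 31 bases is its own: all 186 recur in Snrpn-201, and 176 recur in Snrpn-202.

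The 2 Snrpn transcripts differ at their start. Snrpn-202 begins 135.1 kb upstream of Snrpn-201, and the RefSeq promoter windows (300 bases, GRCm38.p6, minus strand) at both places are shown with every CpG in capitals. The upstream window lies at chr7:60140176-60140475 and the Snurf window, which RefSeq also lists for Snrpn, at chr7:60005150-60005449. RefSeq lists further Snrpn windows that are not shown. They lie at chr7:60047929-60048228, with 4 CpGs, and at chr7:60450128-60450427, with 2 CpGs. The latter is also the window of Snhg14.
Snrpn promoter: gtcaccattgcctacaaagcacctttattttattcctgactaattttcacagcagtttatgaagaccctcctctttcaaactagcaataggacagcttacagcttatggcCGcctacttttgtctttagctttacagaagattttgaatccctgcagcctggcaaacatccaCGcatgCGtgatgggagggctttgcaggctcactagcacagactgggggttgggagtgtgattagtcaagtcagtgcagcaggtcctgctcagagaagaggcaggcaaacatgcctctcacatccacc
Snurf promoter: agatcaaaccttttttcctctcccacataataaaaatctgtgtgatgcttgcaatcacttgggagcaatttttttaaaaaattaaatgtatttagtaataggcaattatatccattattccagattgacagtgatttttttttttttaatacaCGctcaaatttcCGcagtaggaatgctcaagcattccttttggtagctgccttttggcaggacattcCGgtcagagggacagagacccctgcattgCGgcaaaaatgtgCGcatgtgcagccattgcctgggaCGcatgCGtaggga
The upstream window holds 3 CpGs, as many or more being present in 76.7% of the 32851 windows of the table, and the Snurf window holds 7, a count reached by 52.1%. The Ube3a window held the most among the 7 genes, 29 CpGs, a count reached by 12.9% of windows.

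Snhg14 is the host of tandem small nucleolar RNAs (C/D box RNAs that guide modification of other RNAs). The annotation holds 210 snoRNA records between Ube3a and Mkrn3, all on the minus strand, in 87 distinct sequences. Of these, 134 are 78 or 79 bases long and 70 are 92 to 94 bases long. The commonest sequence of each class is shown, at its copy with the lowest coordinate. The 79-base sequence occurs 33 times (shown for Gm24866, chr7:59393561-59393639), and capitals mark the 18 bases, 53 to 70, that are complementary to Htr2c, a serotonin receptor transcript. The 94-base sequence occurs 30 times (shown for Gm22285, chr7:59678509-59678602). Capitals mark bases 8 to 13, which lie within its C box, and its D box.
79-base record: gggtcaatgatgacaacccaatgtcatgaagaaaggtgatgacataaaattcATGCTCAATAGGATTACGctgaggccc
94-base record: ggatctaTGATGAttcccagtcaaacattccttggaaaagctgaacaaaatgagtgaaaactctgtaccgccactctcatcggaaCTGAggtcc
A stretch of at least 18 bases complementary to Htr2c was present in 105 of the 134 records of 78 or 79 bases. Of the 70 records of 92 to 94 bases, 17 carry names of the Snord116 family.

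All 7 genes reached 1 TPM in each library, the level used here for detection, against 27.6% of all annotated genes and 59.6% of protein-coding genes. TPM is a length-normalised abundance scaled to 1 total per library, and unless said otherwise it comes from the first of 2 quantifications deposited, made from alignments to the transcriptome. Snurf stood at 986 and 1043 TPM in replicates 1 and 2, Snhg14 at 585 and 604, and Snrpn at 418 and 408. Ndn followed at 98.3 and 97.7 TPM, Ube3a at 56.9 and 61.6, Mkrn3 at 9.63 and 9.50 and Magel2 at 3.15 and 3.42. No 2 neighbours in this order overlapped between the libraries. Snurf, Snhg14 and Snrpn lay above 99.9%, 99.8% and 99.5% of the 22028 protein-coding genes, Ndn above 95.5% and Ube3a above 91.3%. Mkrn3 lay above 60.9% and Magel2 above 48.3%. The median of the 7 genes was 98.0 TPM, against 16.4 TPM over the 13124 detected protein-coding genes and 23.6 TPM over 42 imprinted genes of other clusters. In bulk tissue, fewer cells of a type and less RNA per cell cannot be told apart.

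**Figure D1:**
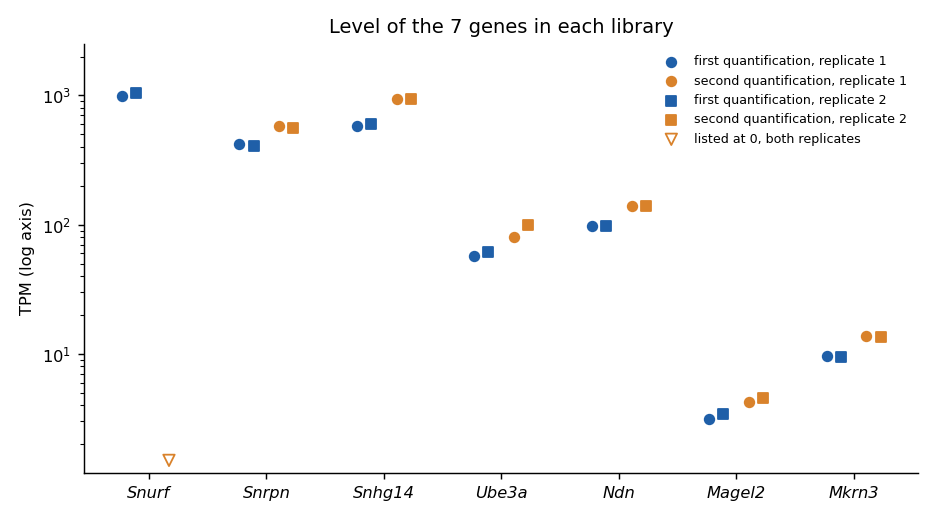
TPM (log axis) of the 7 genes in replicate 1 (circles) and replicate 2 (squares), in the first (blue) and second (orange) quantification, with an open triangle where both libraries are listed at 0. The libraries lie close together for every gene, and Snurf is at 986 and 1043 TPM in the first quantification but listed at 0 in the second.

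Snrpn encodes SmN, which takes the place of SmB in the ring of Sm proteins around spliceosomal small nuclear RNAs of neurons, and Snurf encodes a small basic protein from the upstream frame. Snrpn (ENSMUSG00000102252.5, chr7:59982495-60140219, minus strand) held 15776 and 14781 expected counts, and Snurf 2368 and 2404. Snurf thus held 13.5 ± 0.664% (SD, n = 2) of their joint counts but 71.1 ± 1.17% of their joint TPM. Its record is short: the deposited effective length is 117 bases, against 1840 for Snrpn. Their TPM summed to 1427 ± 33.3 (SD, n = 2). The sum need not count messenger RNAs, because all Snurf bases also lie in Snrpn-201.

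The second quantification, made from the reads with an index, listed Snurf at 0 in both libraries and gave Snrpn 578 and 564 TPM. Its Snrpn counts, 16524 and 15349, lay below the joint Snurf and Snrpn counts of the first quantification, 18144 and 17185. With Gm38393 added, which also holds the Snurf bases, the joint counts were 20784 and 19738 in the first quantification. They were 19789 and 18446 in the second. Which records took the Snurf reads was not tested. Snurf was the only one of the 7 genes past 2-fold or listed at 0 between the quantifications after centring on the median of detected protein-coding genes, 0.61 on the log2 scale. Across those genes 1.55% were past 2-fold or listed at 0, and 0.16% were listed at 0. The other 6 genes differed by -0.18 (Magel2) to 0.05 (Snhg14) on that centred log2 scale. That scale is of TPM and does not show counts. Counts of Snhg14 went from 14670 and 14256 to 24232.4 and 23094.5, the largest proportional change among these 6.

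SmN can be set beside SmB on the same scale. Snrpb, the SmB gene, stood at 52.5 and 53.2 TPM. The Snrpn record, which encodes SmN, was 7.82 ± 0.209 times as high (SD, n = 2), and 6.93 ± 0.248 times in the second quantification. With the Snurf record added the ratio was 27.0 ± 0.369 in the first. That record holds only the upstream frame, on bases shared with Snrpn-201, so this larger ratio is not a measure of SmN. Snrpn led its family in both quantifications, above all 7 other Sm genes, whose median was 39.4 TPM. After Snrpb came Snrpd2 at 48.6 ± 2.83 TPM and Snrpd3 at 41.2 ± 5.15 TPM.

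The quantifications placed Snrpn on different starts. The first gave Snrpn-201, from the Snurf start, 94.997% and 94.86% of the gene's TPM, and Snrpn-202, from the upstream window, 5.003% and 5.143%. The second gave Snrpn-202 99.86% and 99.95%, at 577 and 564 TPM, and Snrpn-201 0.821 and 0.278 TPM. Of the 1902 words of 31 bases in Snrpn-201, 95.8% recur in Snrpn-202, and 47 are its own once Snurf-201 and the Gm38393 transcripts are also set aside. Snrpn-202 has 223 words of its own. Which start carried the reads is therefore not settled by these tables. The read-through gene Gm38393 (ENSMUSG00000000948.16) stood at 40.5 and 40.7 TPM, and at 110 and 105 TPM in the second quantification. Its leading transcript Gm38393-203 is a single exon of 3937 bases and held 91.9% and 92.8% of the gene's expected counts.

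**Figure D2:**
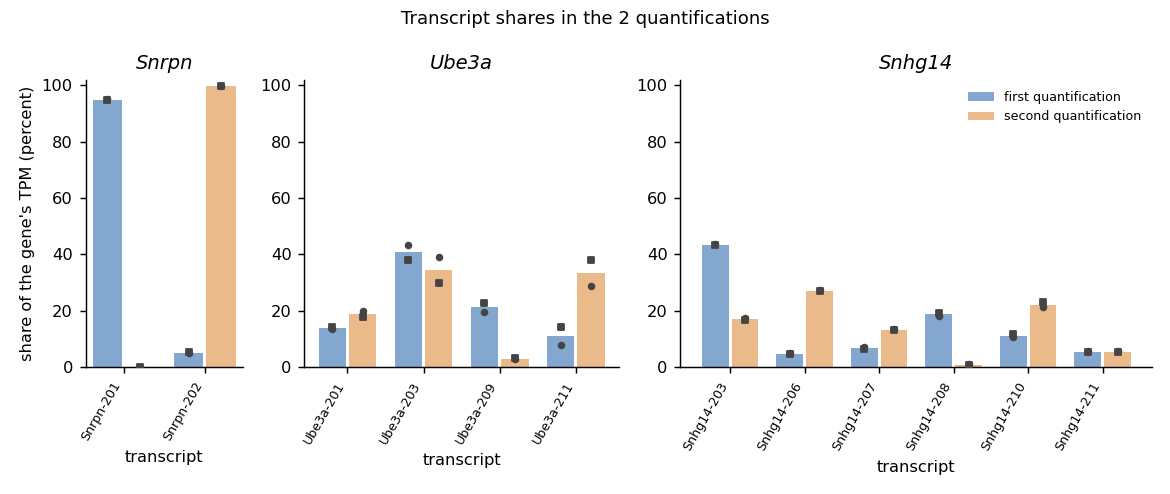
Share of each gene's TPM (percent) held by the named transcripts of Snrpn, Ube3a and Snhg14, with bars for the mean of both libraries, circles for replicate 1 and squares for replicate 2, in the first (blue) and second (orange) quantification. Snrpn passes from a mean of 94.9% on Snrpn-201 to 99.9% on Snrpn-202, and the leading Snhg14 transcript changes from Snhg14-203 to Snhg14-206.

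Snhg14 (ENSMUSG00000100826.6, chr7:59307924-59975759, minus strand) held 14670 and 14256 expected counts over 15 annotated transcripts, 12 of them with counts in both libraries. It exceeded Ube3a 10.0 ± 0.339-fold in TPM (SD, n = 2), and 10.5 ± 1.44-fold in the second quantification. The gene's TPM adds transcripts at separate places along its span, such as Snhg14-206, Snhg14-203 and Snhg14-210. If 1 long RNA covers these places it enters more than once, so folds on this TPM need not be ratios of molecules. Whether it does was not tested. By expected counts of the first quantification the Ube3a to Snhg14 ratio was 0.415, against 0.0997 ± 0.00337 by TPM. TPM divides by effective lengths of 5277 and 4813 bases for Ube3a and of 1223 and 1199 for Snhg14. The second quantification gave Ube3a 6507 and 6121 estimated counts and Snhg14 24232.4 and 23094.5, a lower ratio by counts. In the first quantification Snhg14 was 1.44 ± 0.0573-fold higher in TPM than the Snrpn record alone. Its expected counts were lower than the 15776 and 14781 of Snrpn, and its TPM lay below the sum of Snurf and Snrpn. Both orders were reversed in the second quantification. The estimated counts of Snhg14 exceeded the 16524 and 15349 of Snrpn there. Its 933 and 941 TPM exceeded the Snurf and Snrpn sum, 578 and 564, with Snurf at 0.

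Snhg14-203 led the first quantification at 255 and 261 TPM, 43.6% and 43.3% of the gene. Snhg14-208 followed at 106 and 116 TPM and Snhg14-210 at 61.4 and 70.3 TPM. Snhg14-207 held 7.01% and 6.40%, Snhg14-211 5.69% and 5.25%, and Snhg14-206 4.79% and 4.45%. In the second quantification Snhg14-206 led at 254 and 253 TPM, 27.3% and 26.9%, ahead of Snhg14-210 at 198 and 216 TPM. Snhg14-203 held 17.2% and 16.7% there, Snhg14-207 13.3% and 13.1%, and Snhg14-208 1.06% and 0.593%. Within each quantification the libraries gave the same leading transcript. Some of these models repeat sequence: the 670 bases of Snhg14-203 hold 355 distinct words of 31 bases, 63 of them in no other Snhg14 transcript. Others do not, such as Snhg14-211, whose 6861 bases hold 6831 distinct words. Of the 3 genes with more than 1 transcript (Snrpn, Snhg14 and Ube3a), 2 changed their leading transcript between the quantifications, against 24% of 11834 detected protein-coding genes with more than 1 transcript.

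None of the 210 snoRNA records received a count in either library or quantification. Of these records, 208 lie inside Snhg14, which lay above 99.8% of protein-coding genes by TPM. In the first quantification all 210 have an effective length of 0, which the deposited tables give to every transcript of 99 bases or fewer. The 248 snoRNA genes elsewhere with an effective length of 0 likewise had no count. Of the 1049 longer ones, 145 had counts. No upper limit on the small RNAs themselves follows from these zeros. Htr2c stood at 15.2 and 19.1 TPM.

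Along the minus strand, the levels of Snhg14 transcripts did not fall evenly with distance. Snhg14-211, which starts 29.4 kb downstream of the Snrpn-201 start, stood at 33.3 and 31.7 TPM. Snhg14-203, from 309 kb, and Snhg14-208, from 552 kb, were the highest in the first quantification, and Snhg14-214 and Snhg14-215, which lie between them, stood at 1.44 to 3.00 TPM. The second quantification gave another order: Snhg14-206, from 142 kb, and Snhg14-210, from 594 kb, were the highest, and Snhg14-214 stood at 26.86 and 27.98 TPM, above Snhg14-208 at 9.86 and 5.58. Snhg14-213, from 681 kb and at the far end, stood at 6.42 and 6.31 TPM. It overlaps the last 3613 bases of Ube3a, 4.36% of that gene's span. RefSeq draws Snhg14 longer at both ends. It runs 38.8 kb into Ube3a and starts at chr7:60450177, upstream of the Snrpn-201 and Snrpn-202 starts.

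Inside Ube3a 3 further minus-strand records passed 1 TPM. Gm44560 stood at 6.06 and 5.10 TPM, Gm44559 at 6.08 and 5.56, and Gm44562 at 3.12 and 4.15. 9330162G02Rik, which runs past the Ube3a start and was added after its values were seen, stood at 3.96 and 3.76 TPM. Beyond the Ube3a end, still within the Snhg14 span, A230103L15Rik stood at 3.96 and 3.59 TPM and Gm44831 at 2.68 and 2.42. Gm44829, the only plus-strand record there above 1 TPM, stood at 1.2 and 1.05. The label of the spike-in mix speaks of stranded libraries, but the strand setting used in counting was not given in the sources used here. Reads of overlapping genes on opposite strands may therefore have been mixed.

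**Figure D3:**
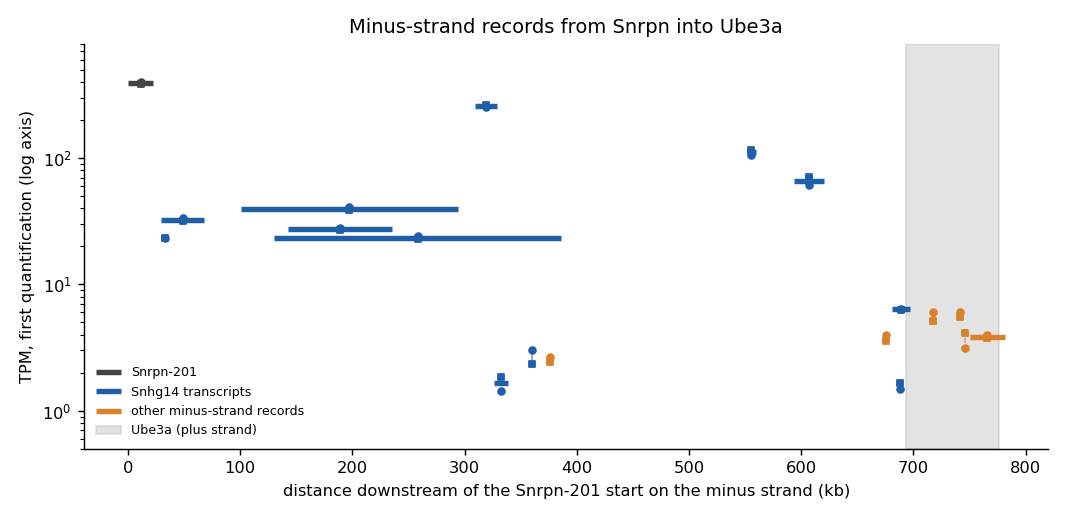
TPM in the first quantification (log axis) of Snrpn-201, the Snhg14 transcripts above 0.5 TPM and 6 other minus-strand records against distance downstream of the Snrpn-201 start (kb). Horizontal bars span each record at its mean, circles and squares are replicates 1 and 2, and the shaded block is Ube3a on the plus strand, over which the records lie at 3.12 to 6.42 TPM.

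Ube3a, a HECT-domain ubiquitin ligase that marks proteins for degradation, lies at chr7:59228750-59311536 on the plus strand (ENSMUSG00000025326.12). It held 6163 and 5844 expected counts over 18 annotated transcripts. Ube3a-203, the longest at 9856 bases, held 43.4% and 38.04% of the gene's TPM but 80.3% and 77.1% of its expected counts. Ube3a-209, of 616 bases, held 19.6% and 22.9% of TPM on 1.92% and 2.46% of counts. Ube3a-201, of 4911 bases, held 13.3% and 14.3% of TPM, and has no word of 31 bases that other Ube3a transcripts lack. Ube3a-211, of 579 bases, held 7.71% and 14.2%.

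In the second quantification Ube3a-203 led replicate 1 with 31.6 TPM, and Ube3a-211 led replicate 2 with 37.4 TPM. Ube3a-203 stood at 29.5 TPM in replicate 2 and Ube3a-211 at 23.2 TPM in replicate 1. Ube3a-209 held 2.72% and 3.03% of the gene's TPM there, and Ube3a-201 19.9% and 17.9%. Ube3a was the one gene of the 7 whose TPM and counts per total differed in sign between the libraries. Its TPM was higher in replicate 2 by 0.11 on the log2 scale, and by 0.29 in the second quantification, from 80.8 to 99.0. Its CPM (expected counts scaled to 1 total in each library) was 197 and 193, a ratio of 0.981 with a 95% interval of 0.946 to 1.02. The deposited effective length of the gene, an average over its transcripts, was 5277 bases in replicate 1 and 4813 in replicate 2.

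Among 26 HECT ligases Ube3a ranked 10 in both quantifications. All 25 others were detected, with a median of 40.4 TPM, and Nedd4 led at 160 ± 1.82 TPM, ahead of Huwe1 at 129 ± 0.148 and Herc3 at 124 ± 0.283. Herc2, a ligase that binds Ube3a and stimulates it, stood at 63.8 and 70.1 TPM. All 8 listed partners and ubiquitin-conjugating enzymes were detected, led by Ube2d3 at 118 ± 3.62 TPM, Ube2d2a at 78.2 ± 3.88 and Psmd4 at 76.8 ± 1.80.

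Ndn and Magel2 are intronless MAGE-family genes of the paternal program. Ndn encodes necdin, which restrains proliferation and promotes survival of neurons, and Magel2 encodes a regulator of a ubiquitin ligase that acts in endosomal protein recycling. Ndn (ENSMUSG00000033585.5, chr7:62346569-62350262, plus strand) held 7250 and 6919 expected counts. Magel2 (ENSMUSG00000056972.6, chr7:62377010-62381640, plus strand) held 293 and 305. Although neighbours, they differed by 29.9 ± 1.86-fold in TPM (SD, n = 2) and 31.7 ± 1.75-fold in the second quantification. The GENCODE model of Ndn is 3694 bases long and the RefSeq model 1652 bases, and TPM divides by the former. For Magel2 the models have 4631 and 4662 bases.

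Ndn ranked 2 of 10 MAGE genes and Magel2 8 of 10, in both quantifications. Maged1 led at 244 ± 4.96 TPM, with Magee1 at 78.7 ± 0.354 and Maged2 at 47.6 ± 0.905. Of the 8 other MAGE genes matched, 6 were detected, and Maged4 had no match. All 11 genes listed for the Magel2 ligase, WASH and retromer complexes were detected, with a median of 24.4 TPM. Vps29 led them at 110 ± 2.00 TPM, then Usp7 at 75.1 ± 1.78 and Vps35 at 69.5 ± 4.34.

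Mkrn3 encodes a makorin RING-finger ligase known as a brake on the onset of puberty (ENSMUSG00000070527.3, chr7:62417593-62420139, minus strand). It held 484 and 458 expected counts and was the lowest of 3 makorins. Mkrn1 stood at 80.6 ± 0.785 TPM and Mkrn2 at 17.4 ± 0.905 TPM. In the second quantification Mkrn3 stood at 13.8 and 13.4 TPM and Mkrn2 at 15.5 and 14.95.

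**Figure D4:**
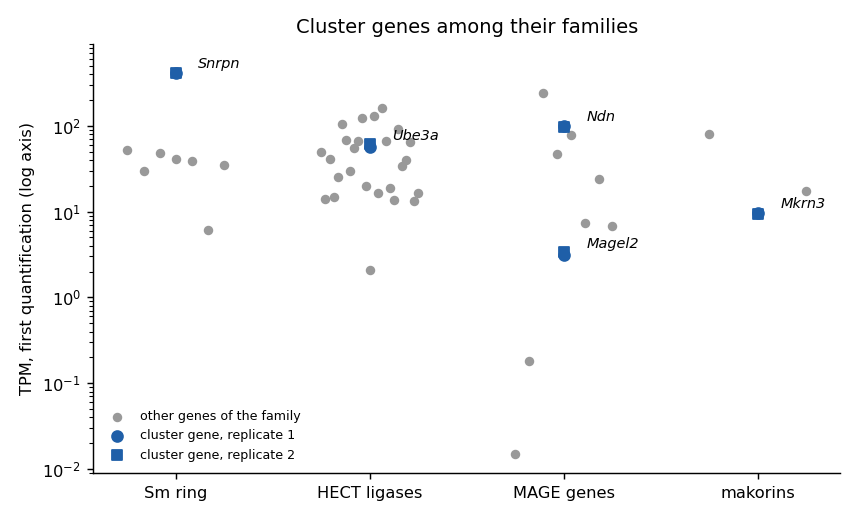
TPM in the first quantification (log axis) of Snrpn, Ube3a, Ndn, Magel2 and Mkrn3 (blue, circle replicate 1, square replicate 2) beside the mean TPM of the other genes of each family (grey). Snrpn is above all other Sm genes, Ube3a ranks 10 of 26, Ndn 2 and Magel2 8 of 10, and Mkrn3 is lowest of 3.

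Between the libraries, none of the 7 was past 1.5-fold, against 1.24% of the 12835 genes whose expected count averaged at least 100, a share at which none of 7 says nothing particular about them. The log2 of replicate 2 over replicate 1, on TPM plus 0.1, ran from -0.03 for Snrpn to 0.12 for Magel2, with a median of 0.05 against 0.04 over all 12835 genes. None was past 1.2-fold, against 11.9% of genes, and in the second quantification 1 of the 7, Ube3a, was, against 15% of the same genes. Both counts are near what those shares give for 7 genes. The CPM ratio of Snrpn, 0.969 with a 95% Clopper-Pearson interval of 0.947 to 0.991, was the only one whose interval left out 1. For Magel2, at 293 and 305 counts, the interval ran from 0.914 to 1.27. Counting error is all that these intervals cover, as they rest on the rounded counts of the 2 libraries. They leave out the uncertain split of reads between Snrpn and Snurf, whose CPM ratio was 1.05 (0.992 to 1.11). Reads were not tagged by molecule as far as the labels say. The intervals deposited by the authors overlapped between the libraries for all 7 genes.

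**Figure D5:**
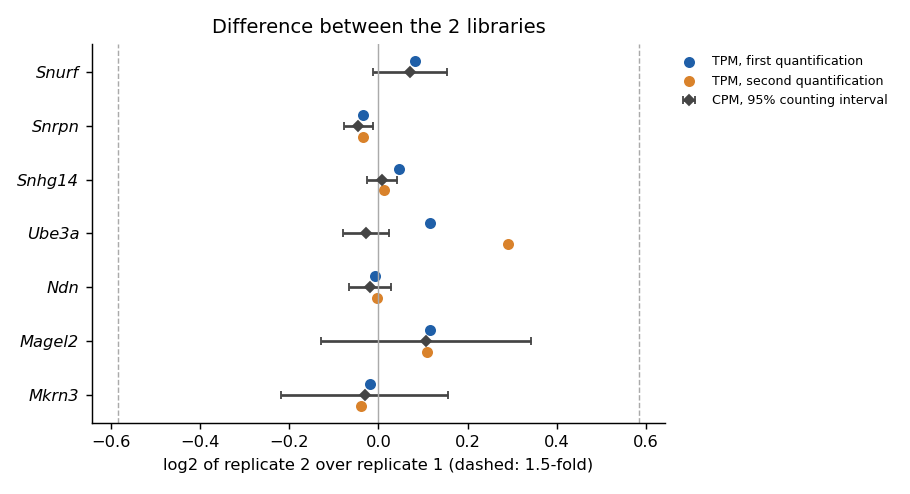
Log2 of replicate 2 over replicate 1 for each gene from TPM of the first (blue) and second (orange) quantification and from CPM (black, bars are 95% counting intervals), with dashed lines at 1.5-fold. All points lie inside the dashed lines, and Ube3a has TPM above 0 with CPM below 0.

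Related genes were compared between the libraries in the same way. Across the lists for imprinted genes, cluster neighbours, Sm, HECT, MAGE and makorin families, ligase partners and imprinting factors, 137 genes matched and 117 had 100 counts or more. None of the 117 was past 1.5-fold in either direction, against 1.24% of the 12835 genes with that count. At that share none of 117 says little about them. Of the 42 imprinted genes of other clusters 36 were detected, led by Meg3 at 1775 ± 105 TPM, Rian at 985 ± 14.9 and Gnas at 927 ± 23.7. Of 15 factors that keep or read imprints 14 were detected, led by Dnmt3a, a DNA methyltransferase, at 167 ± 8.99 TPM, the corepressor Trim28 at 124 ± 0.163 and the histone methyltransferase Ehmt2 at 84.4 ± 4.62. Of 15 genes flanking the cluster 13 were detected, among them Klf13 at 72.6 ± 0.926 TPM and Herc2 at 66.9 ± 4.45 TPM.

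The tissue label was checked against marker lists. All 8 markers of cortical glutamatergic neurons were detected, at a summed 1854 and 1832 TPM. Of 10 hypothalamic markers 2 were detected, at a summed 4.57 and 5.62 TPM, with Kiss1 at 0. The libraries differed in markers of other tissue. For choroid plexus and ependyma, 5 markers summed to 10.8 and 313 TPM, of which Ttr alone stood at 7.35 and 304. Folr1, Clic6 and Kl also rose, to at most 3.46 TPM, and Foxj1 stood at 1.83 and 2.17. The 5 striatal markers summed to 110 and 71.7 TPM, and 5 blood markers to 1213 and 836. The part of these tissues in the values above was not tested.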

How the data were processed

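The authors deposited 3 tables per library on mm10 with GENCODE M21, per the deposited descriptions. Per the file headers, the first quantification holds expected counts and TPM, the percent of each gene's TPM per transcript, and posterior means with interval bounds, here read as a signal, whose level was not given in the sources used here. A further table holds estimated counts and TPM per transcript as deposited, the second quantification, summed here by gene. The programs behind both, their versions and strand handling were not given in the sources used here. Depth was 31254528 and 30218308 expected counts. Library ratios used TPM plus 0.1 over genes averaging at least 100 expected counts, and CPM ratios carry 95% Clopper-Pearson intervals (SciPy 1.17.1). TMM (edgeR 4.0.16) and size factors (DESeq2 1.42.0) on rounded expected counts were alternatives for scaling only. The ratio step was tested on simulated data. The text names the 7 genes, the 3 highest of each related list with Snrpb, Herc2, Atp10a and Peg12, genes of the span at 1 TPM or more, snoRNA records as a group, and transcripts holding 5% or more of a gene's TPM. An item that this rule names is not reported here. Members, lists and alternatives were chosen with earlier results of these data known. Sequences come from GENCODE M21 transcripts and RefSeq promoter windows of GRCm38.p6. All 7 genes had a window.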

Additional observations from a re-analysis of the deposited data

How the results depend on the processing

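Levels followed the table they came from. In the second quantification the median of the 7 genes was 89.9 TPM. Snurf was at 0 there, and the other 6 genes were 1.35- to 1.58-fold higher than in the first, before centring. The Ube3a to Snhg14 ratio was 0.0959, the Snurf plus Snrpn level 571 TPM and the ratio of that level to Snrpb 6.93. The Ube3a-203 share was 34.5% and the Snhg14-203 share 16.98%. With posterior mean TPM the median was 94.8 TPM, the Ube3a to Snhg14 ratio 0.105 and the Snurf plus Snrpn level 1380 TPM. With TPM rescaled so that nuclear protein-coding genes fill the total, the median was 201.9 TPM and the Snurf plus Snrpn level 2941 TPM, all 7 genes rising by the same 2.06-fold. Settings added after the data were seen gave, for the Snrpn record alone, a level of 413 TPM and an SmN to SmB ratio of 7.82, and, by expected counts, a Ube3a to Snhg14 ratio of 0.415, a Ube3a-203 share of 78.7% and an Snhg14-203 share of 20.5%. Leaving out either library gave a median of 97.7 to 98.3 TPM and a Ube3a to Snhg14 ratio of 0.0974 to 0.102. It gave 26.8 to 27.3 for Snurf plus Snrpn over Snrpb. The Ube3a-203 share was then 38.04% to 43.4% and the Snhg14-203 share 43.3% to 43.6%. The count of genes past 1.5-fold between libraries was 0 under every setting run: TMM, DESeq2 size factors, ERCC totals, the second quantification, CPM, pseudocount 1, and lower count minimums. Within that bound directions were not stable: Ube3a was above 0 by TPM and below 0 by CPM, TMM and ERCC totals, and Ndn and Snhg14 also crossed 0. Detection covered 6 genes at 5 TPM and 6 in the second quantification, where Snurf is at 0. For 3 genes (Snrpn, Snhg14 and Ndn) TPM lay above the deposited interval in both libraries. Counts limit Magel2 and Mkrn3 most. No paired analysis was possible because there is only 1 group.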

Other observations

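Between the upstream Snrpn start and Ndn, 10 records that are not among the 7 genes had a mean of 1 TPM or more over both libraries, and 9 of them are on the minus strand. B230209E15Rik, a long non-coding RNA, was the highest at 22.6 and 25.1 TPM. A230057D06Rik stood at 9.73 and 9.81 TPM and A330076H08Rik at 9.67 and 9.63 TPM, close to Mkrn3. A230006K03Rik stood at 4.29 and 4.76 TPM but at 28.4 and 28.9 TPM in the second quantification. Gm9801 stood at 4.93 and 5.77 TPM and Gm44644 at 2.76 and 3.19, while the pseudogenes Gm10297, Ube2nl and Gm7367 and the record Gm38451 lay between 0.960 and 3.81 TPM. Gm7367, the plus-strand one, was listed at 0 in the second quantification. Of the other cluster genes, Atp10a, a phospholipid flippase, stood at 2.56 and 2.31 TPM, and Peg12 fell below detection at 0.540 and 0.420 TPM. Snord107 and Snord64 were listed at 0, and Ipw, Snord115 and Snord116 had no match by symbol.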
